A study of Homo sapiens with 4 samples.

Results

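Interferon-stimulated genes are genes whose transcription is known to increase when a cell senses interferon. The values here describe a list of 43 of them in ribosome footprints and matched RNA-seq from 2 lines derived from SW480 cells, which were established from a human colorectal adenocarcinoma. Members were found by gene symbol, and 42 of the 43 were present in all 4 count tables, among 19192 genes (OASL was not analysed here). One line carried the label LIN28B OE, for overexpression of a protein that binds let-7 precursors and keeps them from being processed. The other carried LIN28B OE together with IMP1-/- knockout, IMP1 being the RNA-binding protein encoded by IGF2BP1, so both lines share the LIN28B label. The labels name no interferon treatment, no control line without LIN28B and no clone number. Each line gave 1 RNA library and 1 footprint library, each from 3 pooled culture plates, so no difference has a replicate check and no test between the lines was possible.

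The targeted gene went against its label. IGF2BP1 had 840 RNA counts in the OE-labelled library and 1974 in the knockout-labelled one (log2 ratio 0.79, 95% interval 0.67 to 0.91), and LIN28B had 1205 and 303 (log2 ratio -2.43, -2.62 to -2.25). Footprints gave the same order, with 332 and 821 for IGF2BP1 (1.03, 0.84 to 1.22) and 190 and 46 for LIN28B (-2.31, -2.82 to -1.85). Whether the labels of the lines were exchanged was not tested. The libraries are therefore called OE-labelled and knockout-labelled throughout, and every direction rests on these labels. Library totals were 5429224 and 6813372 counts in RNA and 2732760 and 3260262 counts in footprints, in the order OE-labelled, knockout-labelled. All pairs of counts follow that order, all ratios are knockout-labelled over OE-labelled after TMM scaling within the assay, and all intervals cover counting error only. Of 12 haematopoietic marker genes, PTPRC, CD3D and NKG7 had 0 counts in all 4 libraries, while GZMB (170 and 446 RNA counts) and CD68 (58 and 163) were higher in the knockout-labelled RNA. The whole haematopoietic list summed to 242 and 648 counts in RNA and to 219 and 570 in footprints. The 2 plasmacytoid dendritic cell markers present, of cells that make much interferon, summed to 3 and 7 RNA counts and no footprints. Of the 8 markers of an intestinal epithelial line, 6 were detected and KRT20 and CDX1 had 0 counts in all 4 libraries. The list summed to 51379 and 32788 RNA counts and to 75437 and 44956 footprints, most of it from KRT8 (18310 and 10719 RNA counts, log2 ratio -1.22) and KRT18 (30815 and 19541, -1.10), whereas CDH1 was higher in the knockout-labelled RNA (243 and 614, 0.89). The fibroblast, endothelial and muscle markers summed to 1700 and 1577 RNA counts and 88 and 183 footprints. Most of the RNA sum came from KDR (1571 and 1312 RNA counts, log2 ratio -0.70), which had 3 and 3 footprints. COL1A1 went the other way, with 2 and 55 RNA counts and 0 and 57 footprints. DES had 101 and 156 RNA counts, and COL1A2 and DCN had 0 counts in all 4 libraries. The part of these 4 marker lists in the values below was not tested.

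Type I and type III interferons bind receptors on the cell surface, whose attached JAK kinases phosphorylate transcription factors, STAT2 among them. STAT2 acts in a complex with IRF9 that binds the interferon-stimulated response element in the promoters of its targets. Interferon gamma acts through another DNA element, the gamma-activated site. The induced proteins sense viral RNA, degrade or edit RNA, stop translation, hold virions at membranes or attach the ubiquitin-like protein ISG15 to other proteins. Many of them also have a basal level in epithelial cells in the absence of interferon.

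Promoter windows show what the members share in sequence and hold no values of these libraries. The members were listed as genes known to respond to interferon, so a high share of the response element is not an independent finding. RefSeq windows of 300 bases (GRCh38.p14, 250 before to 50 after the annotated start) were found for 35 of the 42 members, DDX58 being matched by its current symbol RIGI. They were searched on both strands for GAAANNGAAA, a core of the interferon-stimulated response element, and for TTCNNNGAA, a core of the gamma-activated site, and the motifs may overlap. The response element core was present for 22 of the 35 members (62.9%), against 4.38% of 27305 genes with a window. The gamma-activated core was present for 10 members (28.6%), against 9.38% of those genes. Both shares describe letters in a window, not binding. The pieces below are shown because they hold the cores of members whose values are described later, or, for IFIT1, of a classical target that was almost silent here. Capitals mark the response element core, written in reverse complement (starting TTTC) where it lies on the other strand.
IFIT1: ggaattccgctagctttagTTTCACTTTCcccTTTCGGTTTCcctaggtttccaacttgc
IFITM1: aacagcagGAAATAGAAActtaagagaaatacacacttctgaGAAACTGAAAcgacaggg
IFITM3: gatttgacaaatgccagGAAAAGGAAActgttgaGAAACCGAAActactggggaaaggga
ISG15: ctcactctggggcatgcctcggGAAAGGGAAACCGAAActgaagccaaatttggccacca
BST2: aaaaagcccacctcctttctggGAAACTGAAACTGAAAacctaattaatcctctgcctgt
EIF2AK2: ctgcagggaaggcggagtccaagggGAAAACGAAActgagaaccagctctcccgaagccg
DTX3L: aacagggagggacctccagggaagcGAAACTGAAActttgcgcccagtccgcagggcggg

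The pieces are given 5' to 3' on the strand of each gene. They lie at chr10:89392488-89392547 (plus strand) for IFIT1, chr11:313992-314051 (plus) for IFITM1, chr11:320870-320929 (minus) for IFITM3, chr1:1013362-1013421 (plus) for ISG15, chr19:17405723-17405782 (minus) for BST2, chr2:37156952-37157011 (minus) for EIF2AK2 and chr3:122564307-122564366 (plus) for DTX3L. The piece of DTX3L is also the promoter piece of PARP9, which is read on the opposite strand, so these genes share 1 core. In ISG15 and BST2 the 2 cores overlap by a GAAA block, whereas in IFIT1, IFITM1 and IFITM3 they are apart. The share was not higher among expressed members. The core was found for 13 of 22 members with a window that were expressed in at least 1 assay (59.1%) and for 9 of 13 that were expressed in neither (69.2%).

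**Figure D1:**
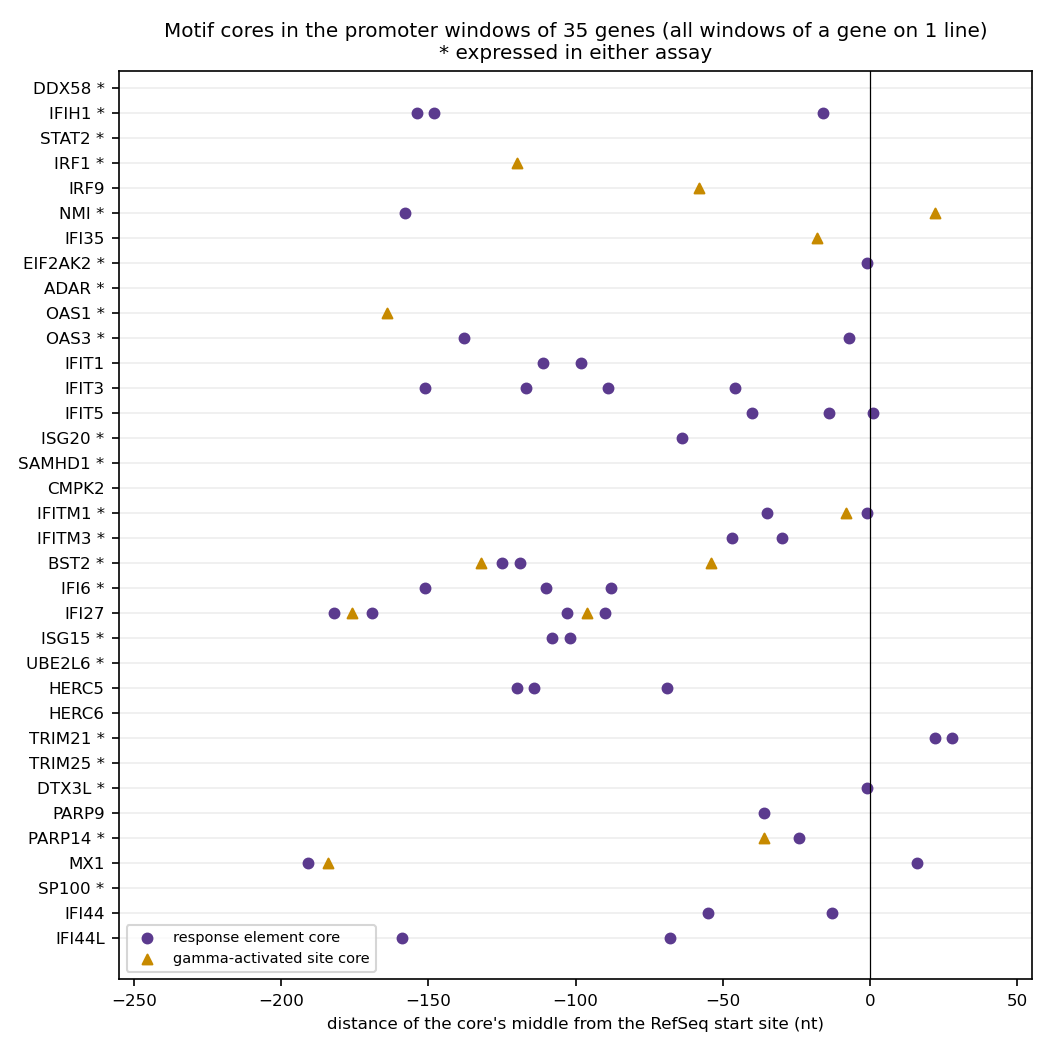
Position of each motif core in the promoter windows of 35 interferon-stimulated genes, 1 line per gene, with the distance of the core's middle from the RefSeq start in nucleotides on the x axis. All windows of a gene share its line, so a gene with more than 1 annotated start can show the same core more than once; 22 genes hold a response element core and 10 a gamma-activated core.

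A member was taken as expressed in an assay when its mean count over the 2 libraries was at least 50, and as sparse from a mean of 1 to under 50. By this rule 21 of the 42 were expressed in RNA, 23 in footprints, 20 in both, 24 in at least 1 and 18 in neither. Of all 19192 genes, 9855 passed the same minimum in RNA, 7323 in footprints and 7260 in both. In RNA 17 members were sparse and 4 (IFIT1, IFI44, HERC5 and CMPK2) were near or at 0, and in footprints 15 were sparse and 4 (IFI44, IFI44L, HERC5 and CMPK2) were near or at 0. IFI44, HERC5 and CMPK2 had 0 counts in all 4 libraries. A count of 0 allows a level of up to 0.553 and 0.440 CPM (the count scaled to a common library total) in the RNA libraries and 1.1 and 0.920 CPM in the footprint libraries, taking 3 counts as the limit. In bulk cultures, fewer expressing cells and less RNA per cell cannot be told apart.

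Together the 42 members took 1373 and 1371 CPM of the RNA and 1873 and 1562 CPM of the footprints. IFITM1, IFITM2 and IFITM3, small membrane proteins that restrict the entry of enveloped viruses, supplied 313 and 249 CPM of the RNA and 586 and 372 CPM of the footprints. Without these 3 genes the members summed to 1060 and 1122.5 CPM in RNA and to 1287 and 1190 CPM in footprints. In CPM, the footprint sum was thus lower in the knockout-labelled library with and without them. The RNA sum was nearly the same with them and slightly higher there without them. CPM uses library totals, and TMM scaling places knockout-labelled RNA lower, so how the RNA sums compare depends on the scaling.

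**Figure D2:**
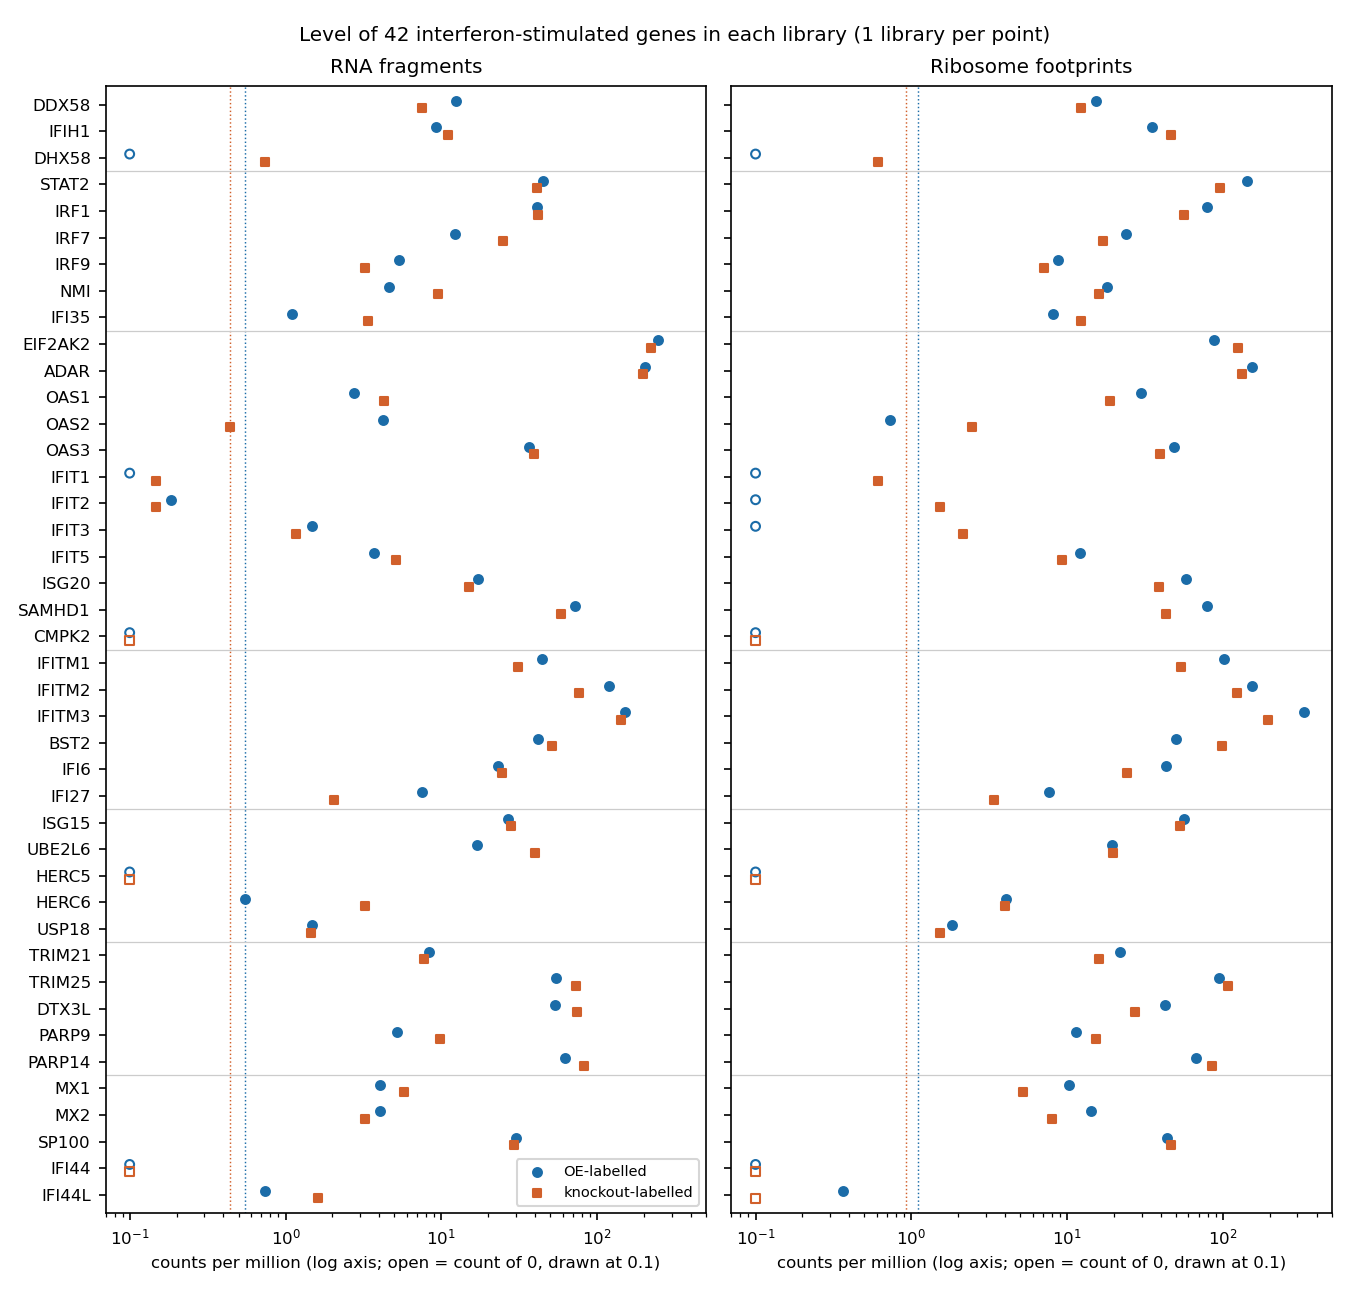
CPM of the 42 interferon-stimulated genes in the 4 libraries, on a log axis, with the genes grouped by role and 1 point per library (open symbols: a count of 0; dotted lines: the level of 3 counts). IFITM3, ADAR and EIF2AK2 are at the top of RNA, and IFI44, HERC5 and CMPK2 sit at 0 in every library.

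Per kilobase of the listed transcript, IFITM3 was the most abundant member in OE-labelled RNA (186 CPM per kb, above 98.5% of genes), followed by IFITM2 (133 CPM per kb), IFITM1 (60.6), BST2 (41.2) and ISG15 (37.6). Footprints per kilobase of coding sequence in the OE-labelled library gave the order IFITM3 (830 CPM per kb), IFITM2 (388), IFITM1 (270), ISG15 (113) and IFI6 (107). These short genes were ahead of ADAR and EIF2AK2, which had the highest plain RNA counts but long transcripts (6610 and 10042 nt).

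In RNA, 2 of the 21 expressed members were at least 1.5-fold higher in the knockout-labelled library (9.52%; 10.5% of all 9855 genes measured) and 3 were at least 1.5-fold lower (14.3%; also 10.5% of all genes). The higher genes were IRF7 and UBE2L6 and the lower ones DDX58, IFITM1 and IFITM2. The members' median log2 ratio was -0.09, beside 0.01 over all genes, and it became 0.03 when libraries were scaled to total counts, which moved the median of all genes to 0.13. Shares of members past 1.5-fold in RNA were thus near those of all genes.

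In footprints, 1 of the 23 expressed members was at least 1.5-fold higher (BST2; 4.35%, against 15.0% of all 7323 genes measured). In the other direction, 8 were at least 1.5-fold lower (34.8%, against 14.1% of all genes): IFITM1, IFITM3, ISG20, OAS1, IFI6, STAT2, SAMHD1 and DTX3L. The members' median footprint log2 ratio was -0.34, beside 0.02 over all genes, and 17 of the 23 were below 0 (73.9%, against 48.5% of all genes). STAT2 and ISG20 were close to the threshold, and 6 members remained past it on the lower side when both dropped under 1.5-fold with total-count or upper-quartile scaling. Among the expressed members, 0 differed by 2-fold or more in footprints (4.66% of all genes were that much higher and 4.44% lower). In RNA 1 expressed member, UBE2L6, was at least 2-fold higher (2.99% of all genes) and 0 were lower (3.49%).

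The footprint over RNA ratio is the footprint log2 ratio minus the RNA log2 ratio, so it shows where footprints differed between the lines by another amount than RNA. It was at least 1.5-fold higher for 2 of 20 members (BST2 and EIF2AK2; 10%, against 13.4% of 7260 genes). Lower by 1.5-fold or more were 4 members (IFI6, IRF7, UBE2L6 and DTX3L; 20%, against 12.9%). Its median was -0.29 over the members and -0.00 over all genes. The 95% counting interval was wholly below 0 for 8 members (IFITM3, IFI6, STAT2, IRF1, IRF7, SAMHD1, UBE2L6 and DTX3L), against 22.9% of all genes, and wholly above 0 for 3 (IFITM2, BST2 and EIF2AK2), against 22.8%. At 2-fold, 3 members were lower (IRF7, UBE2L6 and DTX3L; 3.60% of all genes) and 0 were higher (3.65%). With no replicates, these counts describe 4 libraries and not the genotypes.

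**Figure D3:**
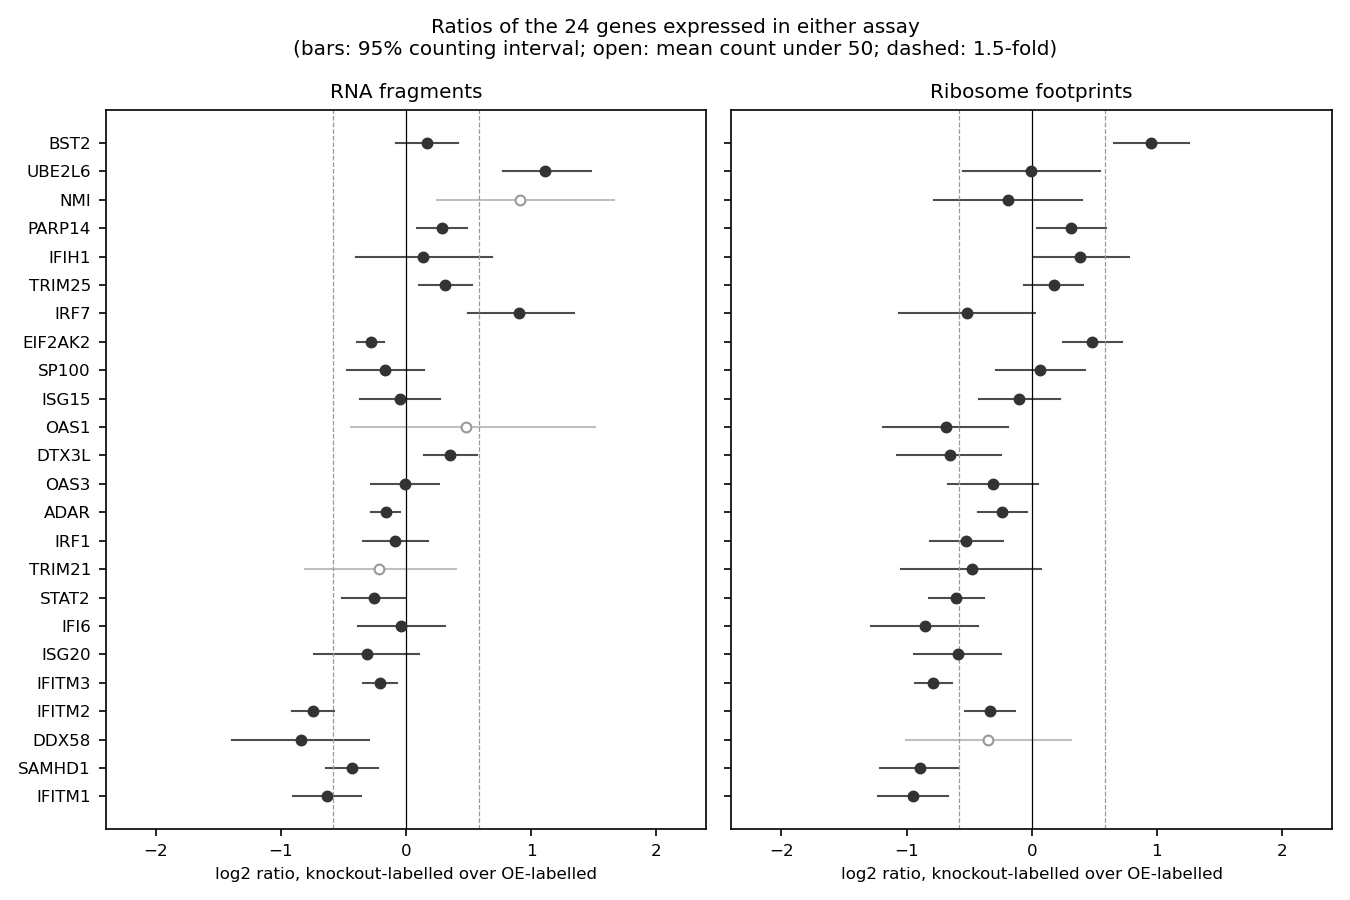
Log2 ratio of knockout-labelled over OE-labelled libraries for the 24 interferon-stimulated genes expressed in RNA (left) or footprints (right), with bars for 95% intervals that cover counting error only, dashed lines at 1.5-fold and open points for a mean count under 50. Most footprint points lie left of 0, with BST2 (0.95) and EIF2AK2 (0.48) on the other side, and UBE2L6 (1.11) and IRF7 (0.91) stand highest in RNA.

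Of the 20 members expressed in both assays, 11 were below 0 in both (30.4% of all 7260 genes were), though the RNA sign of 4 of these (IFI6, IRF1, ISG15 and OAS3) turned with total-count scaling. Above 0 in both were 4 members, IFIH1, TRIM25, PARP14 and BST2 (33.3% of all genes were). RNA was above 0 and footprints below for 3, IRF7, UBE2L6 and DTX3L (18.1% of all genes). The footprint value of UBE2L6 lay so near 0 that its sign turned with the scaling. RNA was below 0 and footprints above for 2, EIF2AK2 and SP100 (also 18.1% of all genes). IFITM1 was the single member at least 1.5-fold lower in both assays, and no member was that much higher in both. The share of all genes past 1.5-fold in both assays was not computed.

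**Figure D4:**
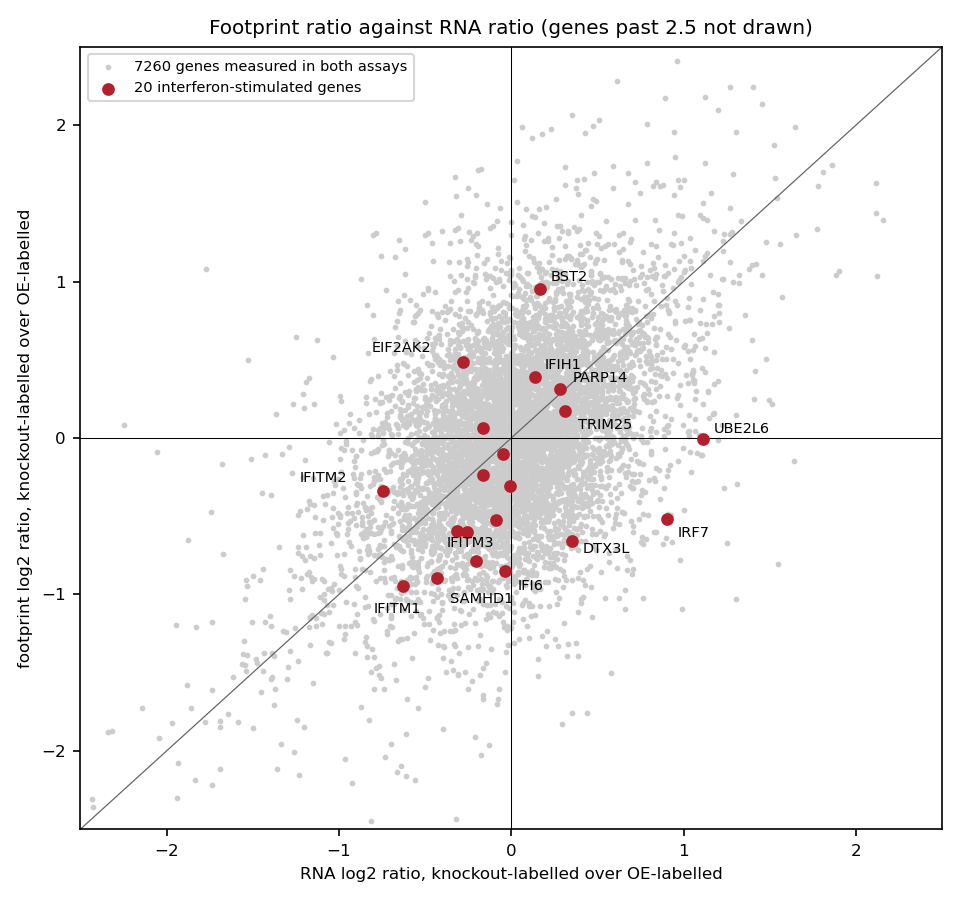
Footprint log2 ratio against RNA log2 ratio, knockout-labelled over OE-labelled, for 7260 genes measured in both assays (grey; genes beyond 2.5 on either axis are not drawn) and 20 interferon-stimulated genes (red), with a diagonal where both ratios are equal. BST2 and EIF2AK2 lie above the diagonal, and UBE2L6, IRF7 and DTX3L lie to its lower right.

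Interferon itself was almost undetected in these libraries. Of 21 interferon ligand genes, 19 had 0 counts in all 4 libraries, including every IFNA gene listed, IFNG and IFNL1. IFNB1, the type I interferon that most cell types can make, had 7 and 3 RNA counts, IFNL2 had 1 and 0, and neither had a footprint. The chemokine genes CXCL10 and CXCL11, known for strong induction, were at 0 in all 4 libraries, and RSAD2, an antiviral enzyme, had 3 and 3 RNA counts.

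Receptor subunits were present in RNA for all 3 interferon types. IFNAR1 and IFNAR2, which form the type I receptor, had 416 and 379 and 85 and 103 RNA counts (log2 ratios -0.58 and -0.17). Footprints of IFNAR1 were 85 and 105, and those of IFNAR2 were 23 and 1 (log2 ratio -4.25, -10.16 to -2.18, from a single count in the knockout-labelled library). IFNGR1, the ligand-binding chain for interferon gamma, had 145 and 201 RNA counts (0.02), and its partner IFNGR2 had 533 and 452 (-0.68, -0.87 to -0.50) with 82 and 62 footprints (-0.68). The type III receptor chains IFNLR1 (77 and 114 RNA counts, 0.12) and IL10RB (113 and 165, 0.10) had few footprints, 7 and 13 for IFNLR1 and 54 and 35 for IL10RB. IFNAR1, IFNAR2, IFNGR2 and IL10RB lie on chromosome 21, where most measured genes read lower. The RNA of IL10RB (0.10) and the footprints of IFNAR1 (0.03) did not. Leaving out the listed interferon-stimulated genes there, but not these receptors, the median RNA log2 ratio was -0.53 over 105 genes (92 below 0). The median footprint ratio was -0.44 over 79 genes (70 below 0). The part of this in the receptor values was not tested.

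The kinases and the factor named here differed little between the lines in RNA. The kinase JAK1 had RNA and footprint log2 ratios of -0.05 and -0.03, TYK2 of -0.25 and 0.44, and STAT3 of 0.12 and -0.18, while JAK2 was sparse (36 and 57 RNA counts). Over all 6 lists of other pathway genes, 101 of 103 genes were in the files and 48 were measured in RNA (median 0.05). Of those 48, 2 were at least 1.5-fold higher (4.17%, against 10.5% of all genes) and 5 lower (10.4%, also against 10.5%). In footprints 41 were measured (median -0.11). Of those 41, 4 were higher (9.76%, against 15.0% of all genes) and 3 lower (7.32%, against 14.1%). The 44 other interferon-induced genes, the list most like the members, had the other sign in footprints (median 0.08, 21 measured). Of these 21, 3 were higher (14.3%, against 15.0%) and 1 lower (4.76%, against 14.1%). In footprint over RNA, 4 of these 21 were at least 1.5-fold higher (19.05%, against 13.4% of all genes). On the lower side there were 0 (against 12.9%). The median footprint over RNA ratio of this list was -0.13, with 12 of the 21 below 0, the same sign as that of the members (-0.29). The members' lower footprint median of -0.34 was thus not seen in this list, and the difference between the lists was not tested. Other lists with measured genes had footprint medians below 0. They were -0.34 for receptor subunits (3 measured) and -0.03 for JAK kinases and STAT factors (4). Signal inhibitors had -0.12 (5 measured) and nucleic acid sensors, adaptors and kinases had -0.21 (8).

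Among those other genes, TRIM5, a factor that blocks retroviral capsids, was higher in both assays (30 and 90 RNA counts, 39 and 161 footprints; log2 ratios 1.12 and 1.76). TRIM14, an adaptor in antiviral signalling, was also higher in both (0.75 and 0.56). LAP3, an aminopeptidase, was lower in both (189 and 117 RNA counts, 215 and 113 footprints; -1.13 and -1.20). The kinase TBK1, which phosphorylates IRF3, had 130 and 192 RNA counts (0.12) but 75 and 41 footprints (-1.14, -1.73 to -0.58). Its relative IKBKE was lower in RNA (96 and 56 counts, -1.22), as were the transcription factor IRF2 (-0.80) and the nuclear body protein PML (-0.72). Footprints were higher for the cap methyltransferase CMTR1 (0.66), for OGFR (0.87) and for the ubiquitin ligase TRAF6 (0.60), whose RNA ratios were 0.06, -0.05 and -0.31.

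The 3 sensors of viral RNA differed in level. DDX58, which encodes RIG-I (chromosome 9, 32455705 to 32526324, GRCh38), had 67 and 51 RNA counts, a log2 ratio of -0.84 (-1.39 to -0.29), and sparse footprints of 42 and 40. IFIH1, which encodes MDA5, had 50 and 75 RNA counts (0.14, -0.40 to 0.69) and 95 and 151 footprints (0.39, 0.01 to 0.78). In RNA the interval of DDX58 was below 0, while that of IFIH1 included 0. In footprints only IFIH1 was past the count minimum. DHX58, whose product LGP2 modulates the other sensors, had 0 and 5 RNA counts and 0 and 2 footprints, too few for a direction.

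Of the transcription factors and signal carriers, STAT2 was lower in footprints, with 245 and 279 RNA counts (-0.26, -0.51 to -0.00) and 389 and 310 footprints (-0.60, -0.82 to -0.38). IRF1, which drives genes of the interferon gamma response, followed the same order with 223 and 286 RNA counts (-0.09, -0.34 to 0.17) and 216 and 182 footprints (-0.52, -0.82 to -0.23). Both had a footprint over RNA ratio below 0, -0.35 (-0.67 to -0.02) for STAT2 and -0.44 (-0.82 to -0.06) for IRF1.

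IRF7, the factor that amplifies type I interferon production (chromosome 11, 612555 to 615728), had the largest gap between the assays among the 20 members expressed in both. It had 66 and 169 RNA counts, a log2 ratio of 0.91 (0.49 to 1.34), but 65 and 55 footprints, a log2 ratio of -0.52 (-1.06 to 0.02). The footprint over RNA ratio was -1.42 (-2.08 to -0.76), or 2.68-fold lower in the knockout-labelled line. Its RNA was therefore higher in that line while its footprint count was not.

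The remaining carriers were sparse in at least 1 assay. IRF9, the DNA-binding partner of STAT2, had 29 and 22 RNA counts and 24 and 23 footprints. All 28-base stretches of its coding sequence also occur in the readthrough annotation AL136295.5, so its counts may have been split between both. NMI, which binds STAT proteins, had 25 and 65 RNA counts (0.92, 0.25 to 1.66) and 49 and 52 footprints (-0.19, -0.78 to 0.40). Its partner IFI35 had 6 and 23 RNA counts (1.41, 0.16 to 3.08) and 22 and 40 footprints (0.57, -0.20 to 1.41), so both had more RNA counts in the knockout-labelled library.

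Effectors that act on RNA held the most RNA counts of any role, 589 and 542 CPM over 12 genes, and 469 and 413 CPM of footprints. EIF2AK2 encodes PKR, a kinase that stops translation when it binds double-stranded RNA (chromosome 2, 37099210 to 37157047). Its RNA counts were 1340 and 1503 (-0.28, -0.39 to -0.17) and its footprints 240 and 407 (0.48, 0.25 to 0.72). The assays thus differed in direction, and the footprint over RNA ratio was 0.76 (0.51 to 1.02), or 1.70-fold higher. ADAR, the enzyme that edits adenosine in double-stranded RNA, had 1105 and 1345 RNA counts (-0.16, -0.28 to -0.05) and 420 and 432 footprints (-0.24, -0.43 to -0.04). Its ratios in both assays were small and of the same sign, unlike those of EIF2AK2.

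SAMHD1, which depletes nucleotides needed by retroviruses (chromosome 20, 36890574 to 36951843), was lower in both assays. It had 393 and 397 RNA counts (-0.43, -0.64 to -0.23) and 217 and 141 footprints (-0.90, -1.21 to -0.59), and its footprint over RNA ratio was -0.47 (-0.83 to -0.10). ISG20, an exonuclease that degrades viral RNA, had 94 and 103 RNA counts (-0.31, -0.73 to 0.11) and 157 and 126 footprints (-0.59, -0.94 to -0.25). The footprints of both genes were at least 1.5-fold lower, and their RNA was not.

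The OAS enzymes make oligoadenylates that switch on RNase L. OAS1 was sparse in RNA (15 and 29 counts) but had 81 and 61 footprints (-0.68, -1.19 to -0.19). OAS2 had 23 and 3 RNA counts (-3.19, -5.76 to -1.66) and 2 and 8 footprints, opposite orders that rest on single-digit counts. OAS3 was the most abundant of them in RNA counts, with 197 and 267 (-0.01, -0.28 to 0.27) and 132 and 129 footprints (-0.31, -0.67 to 0.05). The 3 genes are neighbours on chromosome 12, and no common direction was seen in RNA.

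The IFIT proteins bind viral RNA ends and are among the genes most strongly induced by interferon. IFIT1 had 0 and 1 RNA counts and 0 and 2 footprints, IFIT2 had 1 and 1 and 0 and 5, and IFIT3 had 8 and 8 and 0 and 7. IFIT5 was higher at 20 and 35 RNA counts (0.35, -0.47 to 1.23) and 33 and 30 footprints (-0.41, -1.18 to 0.34). The 2 cores in the IFIT1 promoter piece printed above therefore stood beside a gene with almost no reads. CMPK2, a nucleotide kinase, was at 0 throughout.

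The membrane proteins held the largest share of footprints, 687 and 497 CPM over 6 genes. IFITM1 (chromosome 11, 313506 to 315272) had 240 and 211 RNA counts (-0.63, -0.90 to -0.36) and 277 and 174 footprints (-0.95, -1.23 to -0.67). IFITM2 (307927 to 309392) had 642 and 522 RNA counts (-0.74, -0.91 to -0.57) and 420 and 403 footprints (-0.34, -0.54 to -0.14). IFITM3 (319669 to 321050) had 815 and 963 RNA counts (-0.20, -0.34 to -0.07) and 905 and 635 footprints (-0.79, -0.94 to -0.64). All 3 were lower in the knockout-labelled libraries in both assays, with the larger difference in footprints for IFITM1 and IFITM3 and in RNA for IFITM2. Their footprint over RNA ratios were -0.32 (-0.70 to 0.07), 0.41 (0.15 to 0.67) and -0.58 (-0.78 to -0.38). The RNA value of IFITM1 dropped under 1.5-fold (-0.51) with total-count scaling.

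These genes cannot be read as 3 independent measurements. A footprint is about as long as the 28-base stretches used to compare coding sequences, and 64.1% of those of IFITM1, 38.2% of IFITM2 and 74.2% of IFITM3 also occur in another gene. The longest run shared by all 3 was 99 nt, and the longest shared by IFITM1 and IFITM3 was 141 nt. The run is printed in capitals with 15 flanking bases on each side, from base 160, 220 and 223 of the respective coding sequences.
IFITM1: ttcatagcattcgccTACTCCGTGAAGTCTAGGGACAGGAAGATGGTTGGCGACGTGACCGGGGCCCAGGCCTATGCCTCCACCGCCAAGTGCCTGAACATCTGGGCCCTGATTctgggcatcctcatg
IFITM2: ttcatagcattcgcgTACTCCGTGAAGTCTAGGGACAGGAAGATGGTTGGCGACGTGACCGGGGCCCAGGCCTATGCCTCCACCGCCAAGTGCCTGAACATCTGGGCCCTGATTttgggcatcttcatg
IFITM3: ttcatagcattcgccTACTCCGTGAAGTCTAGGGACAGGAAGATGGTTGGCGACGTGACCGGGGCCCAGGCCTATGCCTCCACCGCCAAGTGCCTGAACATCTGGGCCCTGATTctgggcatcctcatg

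The pieces of IFITM1 and IFITM3 are the same over their whole length, and that of IFITM2 differs only in the flanks. How reads from such runs were assigned is not given in the sources used here, so the counts of the 3 genes, and how they are split, are uncertain. Their sum was lower in both assays, with 313 and 249 CPM in RNA and 586 and 372 CPM in footprints. The genes around the cluster did not share the direction in RNA, with a median log2 ratio of 0.04 over 14 genes, and had a median of -0.16 over 11 genes in footprints. Without IFITM1, IFITM2 and IFITM3, a setting chosen after seeing the data, 6 of 20 members were at least 1.5-fold lower in footprints (median -0.27), where 14.1% of all genes were, and 1 of 18 in RNA, where 10.5% were.

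BST2, or tetherin, holds budding virions at the cell surface (chromosome 19, 17402939 to 17405648) and had the highest footprint ratio of the 23 members expressed in footprints. It had 228 and 349 RNA counts (0.17, -0.08 to 0.42) and 136 and 319 footprints (0.95, 0.66 to 1.25), a footprint ratio of 1.93-fold. The footprint over RNA ratio was 0.78 (0.41 to 1.16). Its direction was opposite to that of the other membrane proteins expressed in footprints. IFI6, a protein of internal membranes, had 125 and 166 RNA counts (-0.04, -0.38 to 0.31) and 118 and 79 footprints (-0.85, -1.29 to -0.43), a footprint over RNA ratio of -0.82 (-1.34 to -0.29). IFI27, its relative, was sparse, with 41 and 14 RNA counts (-1.96, -2.98 to -1.09) and 21 and 11 footprints (-1.18, -2.41 to -0.09), lower in both.

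ISG15 and the enzymes that attach and remove it did not move together. ISG15 itself had 145 and 191 RNA counts (-0.05, -0.37 to 0.27) and 153 and 173 footprints (-0.10, -0.42 to 0.22), and both intervals include 0. UBE2L6, the conjugating enzyme for ISG15 (chromosome 11, 57551662 to 57567807), had 92 and 272 RNA counts, a log2 ratio of 1.11 (0.77 to 1.48), or 2.16-fold, the highest of the expressed members. Its footprints were 53 and 64 (-0.01, -0.55 to 0.55), so the footprint over RNA ratio was -1.12 (-1.74 to -0.50).

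HERC5, HERC6 and USP18 were rare. HERC5, the main human ligase for ISG15, was at 0 in all 4 libraries. HERC6 had 3 and 22 RNA counts (2.24, 0.69 to 4.81) and 11 and 13 footprints (-0.05, -1.31 to 1.27). USP18, the protease that removes ISG15 and also blocks the type I receptor, had 8 and 10 RNA counts and 5 and 5 footprints. Of the 28-base stretches in its coding sequence, 59.2% also occur in other annotated genes, so its low counts may be incomplete.

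Among the ubiquitin ligases and PARP proteins, TRIM25, which activates RIG-I, had 294 and 498 RNA counts (0.31, 0.10 to 0.53) and 258 and 353 footprints (0.18, -0.06 to 0.41). TRIM21, a receptor for antibody inside cells, had 45 and 53 RNA counts and 60 and 52 footprints (-0.48, -1.05 to 0.08). PARP14, a mono-ADP-ribosyltransferase, had 338 and 561 RNA counts (0.29, 0.09 to 0.49) and 183 and 276 footprints (0.32, 0.04 to 0.59). TRIM25 and PARP14 were a little higher in the knockout-labelled libraries in both assays, by less than 1.5-fold.

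DTX3L and PARP9 form a complex, and they are transcribed in opposite directions from the shared promoter printed above. DTX3L (chromosome 3, 122564238 to 122575203) had 291 and 507 RNA counts (0.36, 0.15 to 0.57) but 116 and 89 footprints (-0.66, -1.07 to -0.25), a footprint over RNA ratio of -1.01 (-1.46 to -0.56). PARP9 (122527959 to 122564577) had 28 and 67 RNA counts (0.80, 0.16 to 1.51) and 31 and 50 footprints (0.40, -0.26 to 1.11). RNA was thus higher for both partners, whereas footprints were lower for DTX3L. Their 5' ends overlap on opposite strands, and no source used here says whether counting used the strand, so reads in that overlap may belong to either.

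The region of PARP9, DTX3L and PARP14 also read higher in other genes. Over 20 genes measured in RNA around them the median log2 ratio was 0.34 (5 below 0), and over the 15 of these measured in footprints it was 0.49 (2 below 0). The RNA ratios of DTX3L (0.36) and PARP14 (0.29) were near that regional median, while the footprint ratio of DTX3L (-0.66) was on the other side of 0. The part of the region in these values was not tested.

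The other effectors were few. MX1 and MX2, dynamin-like proteins that trap viral capsids, were sparse, with 22 and 39 and 22 and 22 RNA counts. Footprints were 28 and 17 for MX1 (-0.98, -1.96 to -0.08) and 39 and 26 for MX2 (-0.85, -1.64 to -0.11). Both lie on chromosome 21, and the 20 genes nearest to them had a median RNA log2 ratio of -0.49, with -0.38 over 15 of these in footprints; the part of this was not tested. SP100, a nuclear body protein, had 164 and 199 RNA counts (-0.17, -0.47 to 0.14) and 119 and 151 footprints (0.07, -0.29 to 0.43), with both intervals including 0. IFI44L had 4 and 11 RNA counts and 1 and 0 footprints, and its neighbour IFI44 was at 0.

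Within a line, the share of a gene in the footprint library over its share in the RNA library, centred on the median gene, gives its relative ribosome occupancy. Over the 20 members expressed in both assays the median log2 value was 0.40 in the OE-labelled line, with 13 above the median gene, and 0.25 in the knockout-labelled line, with 11 above. The sign of these medians was not stable. Without IFITM1, IFITM2 and IFITM3 they were 0.27 and -0.15, and with the minimum mean count raised to 200, which leaves 9 members, they were -0.19 and 0.04. The quartiles of all 7260 genes were -0.70 and 0.56 in the first line and -0.75 and 0.58 in the other. IFIH1 was the highest member in both lines (1.65 and 1.88), followed by ISG20 (1.46 and 1.17) and STAT2 (1.39 and 1.03). EIF2AK2 was the lowest in the OE-labelled line (-1.75, and -1.01 in the other), and DTX3L the lowest in the knockout-labelled line (-1.63, and -0.60 in the other). UBE2L6 stood near the median gene in the OE-labelled line (-0.06) and well under it in the knockout-labelled one (-1.20).

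**Figure D5:**
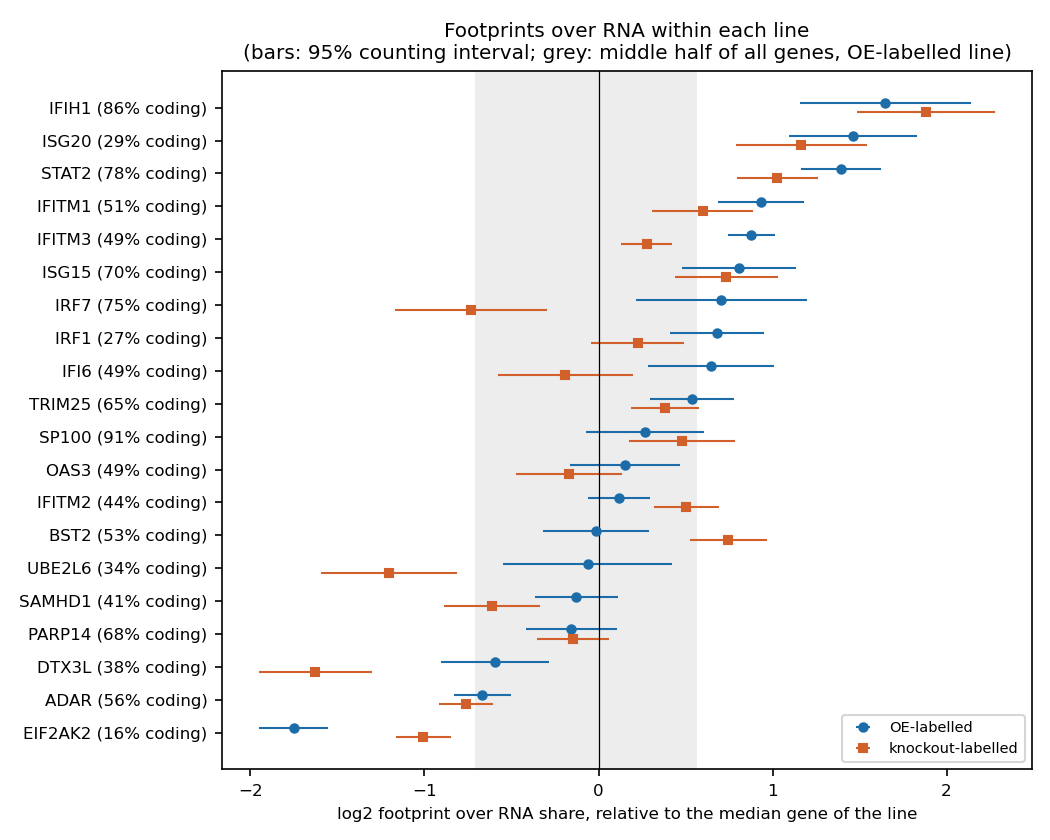
Log2 footprint share over RNA share of 20 interferon-stimulated genes in the OE-labelled and the knockout-labelled line, relative to the median gene of the same line, with 95% intervals for counting error only. IFIH1, ISG20 and STAT2 stand above 1 in both lines, EIF2AK2 stands lowest in the OE-labelled line and DTX3L in the knockout-labelled line.

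The within-line values varied with how much of a transcript is coding. Over 7258 genes they correlated with the coding percentage of the listed transcript at a Spearman rho of 0.30 in the OE-labelled line and 0.27 in the knockout-labelled line. The relation is across genes, which share libraries and are not independent. Among the members, EIF2AK2, with 16.5% of a 10042 nt transcript coding, was low in both lines, and IFIH1, with 85.5% coding, was high in both. ISG20 was high in both lines with 29.3% coding. The sources do not say which part of a transcript was counted in RNA, and the part of this in the within-line values was not tested.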

How the data were processed

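Per the file headers and values, the authors deposited raw whole-number counts for 19192 genes, with 1 transcript named for each. The build GRCh38 and the tools HISAT2 2.1.0, cutadapt 1.10 and Bowtie 1.1.2 appear in the submitters' processing notes, without role or order. Per the labels' protocols, size selection kept footprints from 18 to 34 nt and fragmented RNA from 18 to 50 nt, linkers carried random identifiers of 4 and 5 nt, ribosomal RNA was depleted and 15 PCR cycles were run. Not given in the sources used here are the counting tool, its annotation, which part of a transcript was counted, how reads matching several genes were treated and whether the identifiers were used. PCR copies, if counted, make the intervals too narrow. The cell line field of 1 library reads SW840, and its source field SW480; it was taken as SW480.

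Within each assay, libraries were scaled by TMM factors (edgeR 4.0.16, R 4.3.3), over all genes. A log2 ratio has 0.5 added to each count and an exact conditional binomial (Clopper-Pearson) 95% interval; footprint over RNA ratios have Wald intervals. No p-value was computed. Genes needed a mean count of at least 50 per assay. CPM uses library totals, and per-kilobase levels use the transcript length for RNA and the coding length for footprints, from GENCODE 29 (GRCh38; 19176 of 19192 transcripts found, with all 42 members). Members and lists were chosen with earlier results of these data known. All members are named; other pathway genes are named at a mean RNA count of at least 50 and a 1.5-fold difference in either assay, and receptor, JAK and STAT genes always (some items are not reported here); CXCL10, CXCL11 and RSAD2 were named after their values were seen. The log2 ratio and its exact interval were tested on simulated counts with counting error only, scaled by the median ratio and not by TMM. The other steps were not simulated. The alternatives tried were scaling by DESeq2 1.42.0 size factors, by upper quartiles or by total counts (also leaving out mitochondrially encoded genes), minimum mean counts of 10, 200 or none, 5 added to each count, a 2-fold threshold, uncentred shares and, added later, the members without IFITM1, IFITM2 and IFITM3. Scripts ran in Python 3.11.15 (pandas 2.3.3, scipy 1.17.1, numpy 2.4.6, matplotlib 3.10.9).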

Additional observations from a re-analysis of the deposited data

How the results depend on the processing

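No paired analysis was possible because each line and assay has 1 library, and for the same reason no replicate could be left out. Of 479 values of single members under the alternatives, 476 moved by less than their counting interval and none of those past 1.5-fold changed sign. The others were the RNA ratios of ADAR (-0.04 with total counts) and EIF2AK2 (-0.16, with and without mitochondrially encoded genes). A minimum count does not change the ratio of a gene. The single values under the other minimum counts, which are among the 479, therefore could not move and are no check. IFITM3 passed 1.5-fold lower in footprint over RNA with DESeq2 size factors (-0.59) and total counts (-0.68). With total counts, the median RNA log2 ratio of all genes was 0.13, also without mitochondrially encoded genes (0.13). With a minimum mean count of 10, 6 of 33 members were at least 1.5-fold higher and 6 lower in RNA (13.8% and 13.9% of all genes at that minimum), 10 of 32 were lower in footprint over RNA (18.7%), and the within-line medians were 0.90 (OE-labelled) and 0.72 (knockout-labelled). With a minimum of 200, 0 of 13 members were higher in RNA (against 6.95% of all genes) and 2 lower (15.4%, against 6.67%). In footprints 1 of 9 was higher (11.1%, against 9.94%) and 3 lower (33.3%, against 9.17%). In footprint over RNA 2 of 9 were higher (22.2%, against 7.71%) and 0 lower (against 5.71%). The OE-labelled within-line median at that minimum was -0.19. With no minimum, of 39 members 9 were higher and 6 lower in RNA (20.4% and 19.3%), 6 higher in footprints (23.5%), and 7 higher and 12 lower in footprint over RNA (22.8% and 23.1%), and the within-line medians were 0.94 and 0.84. In footprints with no minimum, 12 of the 39 were lower (30.8%, against 24.2% of all genes). At 2-fold, 1 member was higher and 0 lower in RNA, 0 were higher and 0 lower in footprints, and 0 were higher and 3 lower in footprint over RNA. Without IFITM1, IFITM2 and IFITM3, 1 member was lower in RNA and the knockout-labelled within-line median was -0.15. The minimum count changes which members enter, so these counts cover different sets. Depth limits the 18 members expressed in neither assay, whose counting intervals are wide.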
